A study of Mus musculus with 8 samples.

Results

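The genes described here are 10 epiblast and pluripotency genes, namely Pou5f1, Nanog, Utf1, Dppa4, Dppa5a, Esrrb, Klf4, Lin28a, Sall4 and Tcf7l1. They were followed in mouse embryos that lack the transcription factor Foxa2 and in wild-type embryos, all collected at embryonic day 7.5. The genes were chosen by name, and every probe set (the group of short probes that reads 1 transcript) annotated to one of them was taken from both array platforms. They are 10 of the 18336 genes that the 2 platforms name. This gave 13 of 12422 probe sets on U74Av2, covering 9 of the genes, and 18 of 45037 on MOE430v2, covering all 10. Lin28a had no probe set on U74Av2.

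Wild-type embryos came from timed matings of ICR mice and were pooled as 53 embryos (pool 1) and 50 embryos (pool 2). Foxa2 null embryos were grown from Foxa2 null embryonic stem cells (ES cells) by tetraploid complementation and were pooled as 53 and 48 embryos. In that method the ES cells form the epiblast, whereas the wild-type tetraploid host supplies the extra-embryonic tissues, so a Foxa2 null pool still carries wild-type visceral endoderm. The paper states that a wild-type epiblast displaces its visceral endoderm and a mutant one does not. By its account, genes raised in the mutant therefore cannot be told apart from an enrichment of visceral endoderm. Both genotypes were of mixed sex on the arrays whose labels give it, ran from mid-streak to headfold stages, and had the extra-embryonic region dissected away. The MOE430v2 labels give ICR for the mutant too and the U74Av2 labels give it no strain, so genotype, strain and origin of the embryos cannot be told apart. Each of the 4 RNA extracts was put on 1 array of each platform, so the MOE430v2 arrays re-measured the same pools and n stayed 2 pools per genotype. By the study's account the pools of a genotype are biological replicates, and p-values measure the spread between these pools. In bulk RNA of this kind, fewer cells of a type and less RNA per cell cannot be told apart.

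Pluripotency is the capacity of epiblast cells to form every tissue of the embryo, and it is held by a small network of transcription factors in which Pou5f1 (Oct4), Sox2 and Nanog bind many of the same sites. Naive pluripotency, that of the blastocyst, leans on factors such as Klf4 and Esrrb, which are lowered as the epiblast implants, while Pou5f1 persists through gastrulation. Nanog returns in the posterior epiblast near the primitive streak and is then lost as cells differentiate, so its level is known to fall as gastrulation advances.

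Promoter sequence is given first for 4 of the genes, because Nanog, Utf1 and Klf4 were among those with higher signals in the Foxa2 null pools and Pou5f1 was not. Each is the stretch of 250 bases that ends just before the annotated start in RefSeq (GRCm38.p6), written 5′ to 3′ on the strand of the gene. Nanog lies at chr6:122707239-122707488 on the plus strand, Utf1 at chr7:139943606-139943855 on the plus strand, Klf4 at chr4:55532476-55532725 on the minus strand and Pou5f1 at chr17:35505782-35506031 on the plus strand. Capitals mark matches on either strand to the 7 motifs searched, though the free base inside the Nanog composite described below stays in lower case.
Nanog: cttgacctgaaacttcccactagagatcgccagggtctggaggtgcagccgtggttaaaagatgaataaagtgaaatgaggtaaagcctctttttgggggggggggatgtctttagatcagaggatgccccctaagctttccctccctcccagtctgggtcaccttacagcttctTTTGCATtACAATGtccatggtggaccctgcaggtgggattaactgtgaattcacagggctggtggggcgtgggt
Utf1: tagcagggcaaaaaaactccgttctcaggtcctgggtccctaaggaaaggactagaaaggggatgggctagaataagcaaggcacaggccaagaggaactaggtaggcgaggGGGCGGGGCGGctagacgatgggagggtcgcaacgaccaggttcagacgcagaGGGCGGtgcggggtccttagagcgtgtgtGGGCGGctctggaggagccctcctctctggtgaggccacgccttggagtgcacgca
Klf4: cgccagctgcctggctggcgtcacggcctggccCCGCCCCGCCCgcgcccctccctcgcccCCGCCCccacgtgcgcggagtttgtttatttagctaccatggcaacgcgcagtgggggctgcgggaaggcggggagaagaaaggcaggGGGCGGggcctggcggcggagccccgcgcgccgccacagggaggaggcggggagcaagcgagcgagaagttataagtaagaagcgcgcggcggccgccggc
Pou5f1: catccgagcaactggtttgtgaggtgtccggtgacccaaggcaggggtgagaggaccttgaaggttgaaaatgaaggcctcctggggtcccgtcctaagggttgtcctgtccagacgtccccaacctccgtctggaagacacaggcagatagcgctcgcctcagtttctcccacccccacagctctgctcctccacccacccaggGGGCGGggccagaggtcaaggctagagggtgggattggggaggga

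The capitals in the Nanog stretch are a composite of an octamer core, TTTGCAT, bound by Pou5f1, and a Sox core, ACAATG, bound by Sox2. The searched letters were TTTGCATNACAATG, and they lie from -75 to -62 counted from the start. Among 32851 promoter windows of this length these letters occurred in 2 (0.00609%), and both are overlapping windows of Nanog. The 2 cores lie inside the composite and were also counted alone, where TTTGCAT was in 4.12% of all windows and ACAATG in 10.7%. The capitals in the Utf1, Klf4 and Pou5f1 stretches are GC boxes (GGGCGG), which 32.7% of all windows hold. They were found 4 times before Utf1, 4 times before Klf4 and once before Pou5f1, with neighbouring matches that overlap by a base in Utf1 and Klf4. Windows were at hand for 7 of the genes (10 windows), and 4 of the 10 held a GC box. The full octamer ATTTGCAT (1.6% of all windows), the forkhead core TGTTTNC that the Foxa family reads (17.8%) and the Tcf core CTTTGAT (3.21%) were in 0 of the 10. A match of this kind describes letters and not a bound site, and a missing match says only that the letters are not in this window.

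Averaged over both platforms, 2 of the 8 genes tested rose in Foxa2 null embryos. Dppa5a, a small RNA-binding protein of early embryonic cells, had a log2 ratio (null over wild-type) of 1.34 ± 0.24 (SE, n = 2 pools per genotype). Klf4, a zinc-finger factor of the naive network, had a log2 ratio of 1.20 ± 0.23. Their adjusted p-values were 0.0267 and 0.0304 by limma with Benjamini-Hochberg adjustment over 5933 genes. In this comparison 1.35% of all genes were called higher and 1.06% lower. At an unadjusted p under 0.05, 4 of the 8 were higher and 0 lower, against 7.43% and 7.84% of all genes. Both null extracts lay above both wild-type extracts for 5 of the 8 and below for 1, against 22.2% and 23.5% of all genes. The 5 include Dppa4, whose U74Av2 probe set was tested only through its null values, so Dppa4 lends this count no weight. Nanog and Utf1 also lay higher in both null extracts, with log2 ratios of 0.82 ± 0.26 and 0.79 ± 0.21, but did not pass (limma, Benjamini-Hochberg adjusted p = 0.149 and 0.0956). Pou5f1 had a log2 ratio of 0.09 ± 0.14, with a 95% interval of -0.23 to 0.40.

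Both calls rest on few pools. The Dppa5a call was lost without wild-type pool 1 (log2 ratio 1.26, limma with Benjamini-Hochberg adjusted p = 0.0593) and without Foxa2 null pool 2 (1.11, 0.0674). The Klf4 call was lost without wild-type pool 1 (1.18, 0.0664), wild-type pool 2 (1.23, 0.063) or Foxa2 null pool 1 (0.98, 0.0932). Conversely Utf1 passed without wild-type pool 2 (1.11, 0.0316) and without Foxa2 null pool 1 (1.02, 0.000505), and Nanog without Foxa2 null pool 1 (1.26, 3.23e-05). Other omissions lowered the same ratios, with Nanog at 0.38 (0.422) without Foxa2 null pool 2 and 0.59 (0.417) without wild-type pool 1, and Utf1 at 0.56 (0.11) and 0.47 (0.337). In such a fit the lone pool is assumed to vary like the other genotype. Both calls were also lost when limma was fitted without its intensity trend (adjusted p = 0.146 for each) and with no filter on low signals (0.0503 for Dppa5a and 0.0552 for Klf4). The Dppa5a average also draws on a dim U74Av2 probe set. Its wild-type signals of 19.0 and 14.6 lie close to the mean signal of 15.4 at the filter. Its log2 ratio there was 1.76, or 1.15 with an offset before log2, against 0.92 (0.83 with an offset) on MOE430v2.

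On either platform alone, 0 of the genes passed an adjusted p under 0.05 (limma, Benjamini-Hochberg), against 0.104% of all probe sets called higher and 0.173% lower on U74Av2, and 0.19% and 0.244% on MOE430v2. At an unadjusted p under 0.05, 4 of their 11 tested probe sets were higher and 0 lower on U74Av2, where 5.01% of all probe sets were higher. On MOE430v2, 6 of 17 were higher and 1 lower, against 6.04% and 6.07% of all. Both null arrays exceeded both wild-type arrays at 5 of 11 and 9 of 17 probe sets, against 18.6% and 21.5% of all probe sets. They lay below both at 1 of 11 and 2 of 17, against 21.4% and 21.8%. Pou5f1, Nanog and Dppa5a have processed copies elsewhere in the genome, and whether probes also read those was not tested. Probe sets of 1 gene read the same transcript and do not count as separate evidence. With 2 pools against 2, an exact two-sided permutation test cannot give a p under 0.333.

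**Figure D1:**
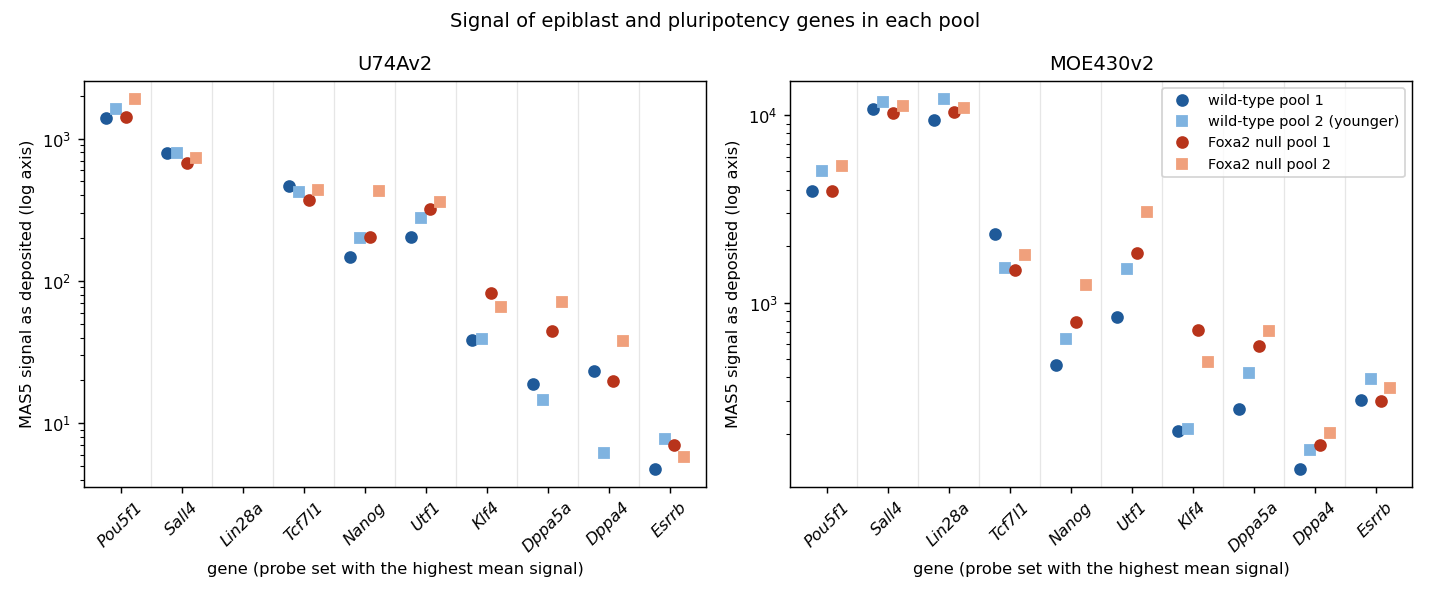
MAS5 signal as deposited (log axis) of the 10 genes in each pool, 1 point per array, at the probe set with the highest mean signal. The Foxa2 null points lie above both wild-type points for Nanog, Utf1, Klf4 and Dppa5a on both platforms, whereas those of Pou5f1, Tcf7l1 and Esrrb overlap with wild-type.

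The core factors gave different pictures. Pou5f1 (chr17:35506032-35510777), the POU-domain factor without which no pluripotent inner cell mass forms, had U74Av2 signals (probe set 103075_at) of 1398 and 1610 in wild-type pools 1 and 2 and 1428 and 1885 in Foxa2 null pools 1 and 2. On MOE430v2 (1417945_at) the signals were 3927 and 4998 in wild-type and 3914 and 5327 in Foxa2 null. On both platforms the second pool of each genotype was the higher one and the genotypes overlapped. The log2 ratios were 0.13 ± 0.16 (95% interval -0.24 to 0.50) and 0.04 ± 0.15 (-0.31 to 0.39). These intervals leave out a doubling in either direction. A second U74Av2 probe set for Pou5f1 (161159_r_at) was dim, at 27.3 and 14.9 in wild-type and 23.3 and 15.6 in null.

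Nanog (chr6:122707489-122714633), a homeodomain factor that holds cells in the undifferentiated state, had U74Av2 signals (161072_at) of 148 and 199 in wild-type and 204 and 432 in null. On MOE430v2 (1429388_at) they were 465 and 637 in wild-type and 789.7 and 1244 in null. Both null pools exceeded both wild-type pools on both platforms, with the highest value in null pool 2 and a narrow gap of null pool 1 over wild-type pool 2 on U74Av2. The log2 ratio was 0.79 ± 0.33 on U74Av2 (adjusted p = 0.463, limma with Benjamini-Hochberg) and 0.85 ± 0.26 on MOE430v2 (0.23). Null pool 2 set much of the U74Av2 value, since the ratio was 0.25 without it and 1.33 without null pool 1. The dimmer probe set 161653_f_at, whose suffix marks probes that may read related sequences, was at 22.8 and 31.9 in wild-type and 31.6 and 53.4 in null, which overlap.

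Sall4 (chr2:168748332-168767201), a zinc-finger factor that works with Pou5f1 and Nanog, gave ratios on the other side of 0. Its U74Av2 signals (96169_at) were 799 and 786.5 in wild-type and 677 and 733 in null, so both null pools lay lower. On MOE430v2 the brighter probe set (1424152_at) read 10718 and 11776 in wild-type and 10250.5 and 11155 in null, which overlap as deposited and separate narrowly after loess normalization. The log2 ratios of these were -0.17 ± 0.14 and -0.07 ± 0.08. A second MOE430v2 probe set (1424153_s_at) gave 2188 and 2407 in wild-type and 1323 and 1717 in null, with no overlap. Its log2 ratio was -0.61 ± 0.16 (adjusted p = 0.157, limma with Benjamini-Hochberg), so the Sall4 probe sets disagreed in size while sharing a sign.

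Among the naive factors, Klf4 (chr4:55527137-55532475) showed the clearest separation. Its U74Av2 signals (99622_at) were 38.6 and 39.2 in wild-type and 82.4 and 65.6 in null. On MOE430v2, 1417394_at read 206 and 211 in wild-type and 717 and 484 in null. The wild-type pools were almost equal, and both null pools lay above them with null pool 1 the higher. The log2 ratios were 0.92 ± 0.27 (adjusted p = 0.253, limma with Benjamini-Hochberg) and 1.49 ± 0.27 (0.0576), and the second stands 178th of 31526 MOE430v2 probe sets by p. The other bright MOE430v2 probe set, 1417395_at, read 231 and 177 in wild-type and 457 and 387 in null, a log2 ratio of 1.05 ± 0.27 (0.159). The U74Av2 probe set 161185_i_at was at 1.0 or below on every array and was not tested.

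Esrrb (chr12:86361117-86521628), an orphan nuclear receptor of the naive network, was near the floor on U74Av2 (100301_at), at 4.8 and 7.7 in wild-type and 7.0 and 5.8 in null, and fell under the signal filter there. On MOE430v2 its brightest probe set (1441921_x_at) read 302 and 392 in wild-type and 298 and 351 in null. The log2 ratio of -0.09 ± 0.26 has an interval of -0.67 to 0.48, and the genotypes overlapped. The other MOE430v2 probe sets gave 0.20 ± 0.46 (1436926_at) and 0.55 ± 0.52 (1422986_at). The signals of the last were 104 and 73.4 in wild-type and 102 and 154 in null, which overlap as deposited.

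Tcf7l1 (chr6:72626371-72789045), the HMG-box factor once called Tcf3 that represses Nanog and other naive genes, had probe sets that disagreed in sign on both platforms. The brighter ones read 466 and 419.5 in wild-type and 369 and 437 in null on U74Av2 (104458_at), and 2311 and 1527 against 1495 and 1787 on MOE430v2 (1436207_at). Their log2 ratios were -0.14 ± 0.16 and -0.21 ± 0.19, and the genotypes overlapped. The others, 160780_at (352 and 334 in wild-type, 551 and 367 in null) and 1450117_at (1429.7 and 1083 in wild-type, 1724 and 1609.95 in null), had both null pools above wild-type. Their log2 ratios were 0.39 ± 0.21 and 0.41 ± 0.16 (adjusted p = 0.586 and 0.342, limma with Benjamini-Hochberg), so no direction can be given for Tcf7l1.

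The remaining genes code for chromatin and RNA-binding proteins. Utf1 (chr7:139943856-139945112), a chromatin-bound protein of pluripotent cells and a Pou5f1 and Sox2 target, had U74Av2 signals (102220_at) of 205 and 275 in wild-type and 320 and 357.5 in null. On MOE430v2 (1416899_at) they were 836 and 1504 in wild-type and 1829 and 3033 in null. The order of the 4 pools was the same on both platforms, wild-type pool 1 lowest and null pool 2 highest, with no overlap. The log2 ratios were 0.51 ± 0.19 (adjusted p = 0.402, limma with Benjamini-Hochberg) and 1.07 ± 0.30 (0.197). Without null pool 1 the MOE430v2 ratio of Utf1 was 1.44 and passed (adjusted p = 0.0477 by the same test). It was 0.69 (0.417) without null pool 2 and 0.63 (0.416) without wild-type pool 1. A dimmer probe set (1458333_x_at) read 90.8 and 88.2 in wild-type and 104 and 219 in null, a log2 ratio of 0.77 ± 0.51.

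Dppa5a (chr9:78367052-78368199) was dim on U74Av2 (160370_at), at 19.0 and 14.6 in wild-type and 44.7 and 71.3 in null. On MOE430v2 (1416552_at) its signals were 271 and 421 in wild-type and 588 and 702 in null. Both null pools lay above both wild-type pools on both platforms. The log2 ratio was 1.76 ± 0.39 on U74Av2 (adjusted p = 0.145, limma with Benjamini-Hochberg), 103rd of 8695 probe sets by p. On MOE430v2 it was 0.92 ± 0.26 (0.207).

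Dppa4 (chr16:48283735-48294292), a nuclear protein that marks developmental gene promoters in early cells, was just above the signal filter on U74Av2 (92258_at, percentile 32.7 by mean signal), at 23.2 and 6.2 in wild-type and 19.9 and 37.9 in null. These values overlap, and the log2 ratio of 1.20 ± 0.70 depends on the low value in wild-type pool 2, since it was 0.24 without that pool. The wild-type mean lay under the signal at the filter (15.4), so this probe set was tested only through its null values and the size of the ratio is not exact. On MOE430v2 (1429597_at) the signals were 130.2 and 163 in wild-type and 173 and 201 in null, a log2 ratio of 0.37 ± 0.36 with no overlap and no call (adjusted p = 0.731, limma with Benjamini-Hochberg).

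Lin28a (chr4:134003330-134019196), the RNA-binding protein that blocks maturation of let-7 miRNAs, was measured on MOE430v2 alone. The signals of 1437752_at were 9371 and 12092 in wild-type and 10416 and 10855 in null. The null pools lay between the wild-type pools, and the log2 ratio was 0.00 ± 0.10, with an interval of -0.22 to 0.22. The second probe set (1421749_at) read 4539 and 2007 in wild-type and 4139 and 3182 in null, again with the null values between the wild-type ones.

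**Figure D2:**
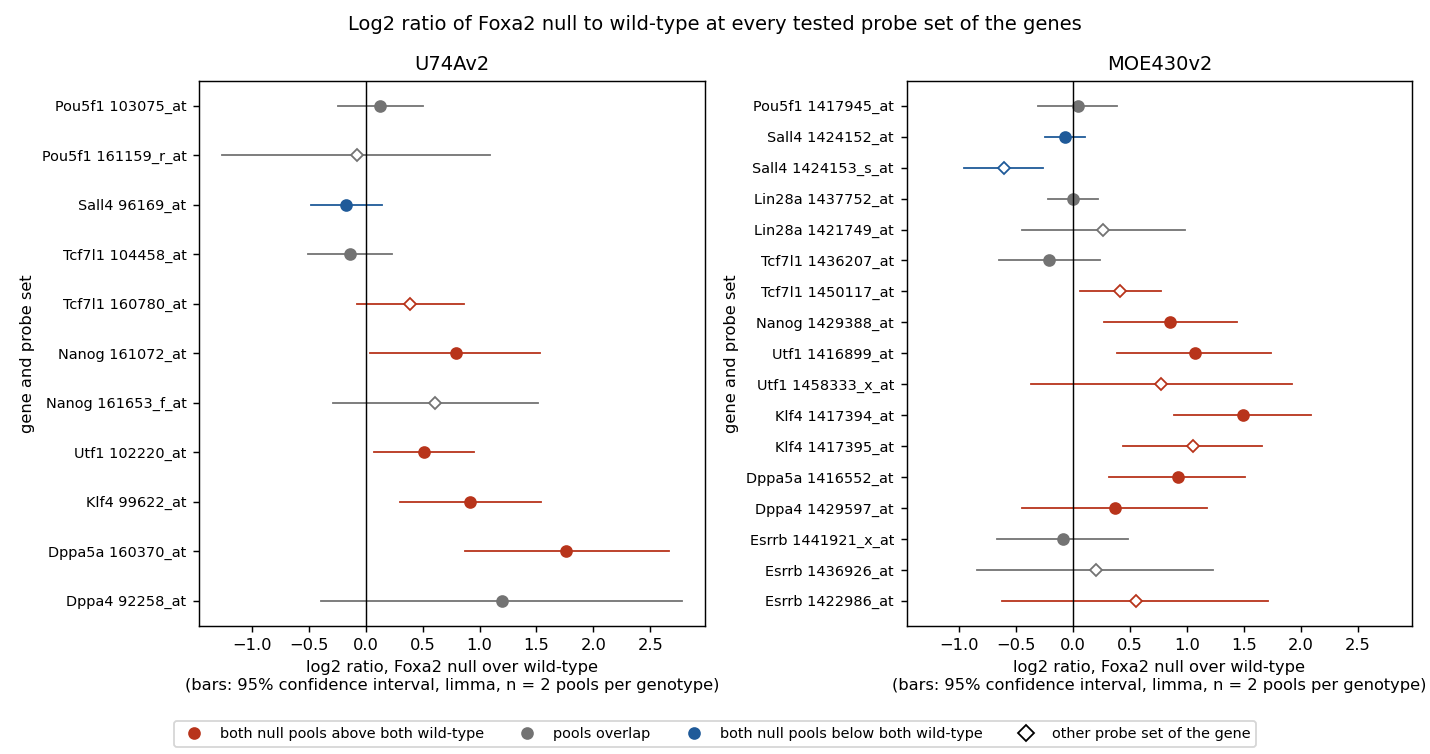
Log2 ratio, Foxa2 null over wild-type, with its 95% confidence interval (limma, n = 2 pools per genotype) at each tested probe set of the genes, filled circles being the brightest probe set of a gene. Ratios of Klf4, Dppa5a, Utf1 and Nanog lie right of 0, those of Sall4 left of it, and those of Pou5f1 and Lin28a at or near 0.

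Taking the brightest probe set per gene, the median log2 ratio of the 8 genes tested on U74Av2 was 0.65, against -0.01 over 6410 genes, and that of the 10 genes on MOE430v2 was 0.21, against -0.01 over 14180 genes. The U74Av2 median includes Dppa4, which was tested there only through its null values and so raises it. The genes thus ranged on MOE430v2 from -0.21 (Tcf7l1) to 1.49 (Klf4), and on U74Av2 from -0.17 (Sall4) to 1.76 (Dppa5a). Null pool 2 gave the highest deposited signal for 5 genes on each platform (Pou5f1, Nanog, Utf1, Dppa4 and Dppa5a), and null pool 1 for Klf4 on both.

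The younger and the older wild-type pool were then compared as a check of stage, since pool 2 held the youngest embryos by the staging given with the study. This sets 1 array against 1 array on each platform and has no test. On MOE430v2 the younger pool was above the older at 9 of the 10 genes, where 50.4% of all probe sets were, and on U74Av2 at 4 of the 8, where 50.7% were. Utf1 was higher in the younger pool by 0.42 (U74Av2) and 0.87 (MOE430v2) on the log2 scale, Nanog by 0.43 and 0.50, and Pou5f1 by 0.20 and 0.29. These 3 genes were thus higher in the younger pool on both platforms at their brightest probe sets. Dimmer probe sets of Pou5f1 on U74Av2 (-0.87) and Utf1 on MOE430v2 (-0.07) went the other way, whereas that of Nanog on U74Av2 (0.48) did not. Klf4 differed by 0.02 and 0.07, and Sall4 by -0.02 and 0.00. Their second MOE430v2 probe sets were at -0.35 (Klf4) and 0.15 (Sall4). Dppa5a (-0.38 and 0.68) and Dppa4 (-1.90 and 0.32) differed in sign between platforms, each having a dim U74Av2 probe set. Tcf7l1 was lower in the younger pool, by -0.15 and -0.58. Lin28a (0.24) and Esrrb (0.41) were higher in it on MOE430v2, although the second Lin28a probe set was at -1.21. The other Esrrb probe sets there were at 0.16 and -0.54.

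The mean of the null pools was also set against each wild-type pool in turn, as values with no test. For Nanog the log2 difference was 1.00 from the older and 0.58 from the younger pool on U74Av2, and 1.11 and 0.60 on MOE430v2. For Utf1 it was 0.72 and 0.30, then 1.50 and 0.63. At these brightest probe sets both genes were nearer to the younger wild-type pool and still above it. This follows from the pool order already given, so it adds no separate evidence on stage. For Klf4 the differences were 0.93 and 0.91 on U74Av2 and 1.53 and 1.45 on MOE430v2, about the same from either pool. Other MOE430v2 probe sets differed from this picture, with Klf4 1417395_at at 0.88 and 1.23 and Utf1 1458333_x_at at 0.74 and 0.81. The dimmer Nanog probe set on U74Av2 (0.85 and 0.36) did not. For Dppa5a they were 1.57 and 1.95, then 1.26 and 0.58. Pou5f1 was 0.23 and 0.03 from the pools on U74Av2 and 0.19 above the older and 0.10 below the younger on MOE430v2. The part of stage in the differences between genotypes was not tested, and with 2 pools per genotype stage was not fitted beside genotype.

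**Figure D3:**
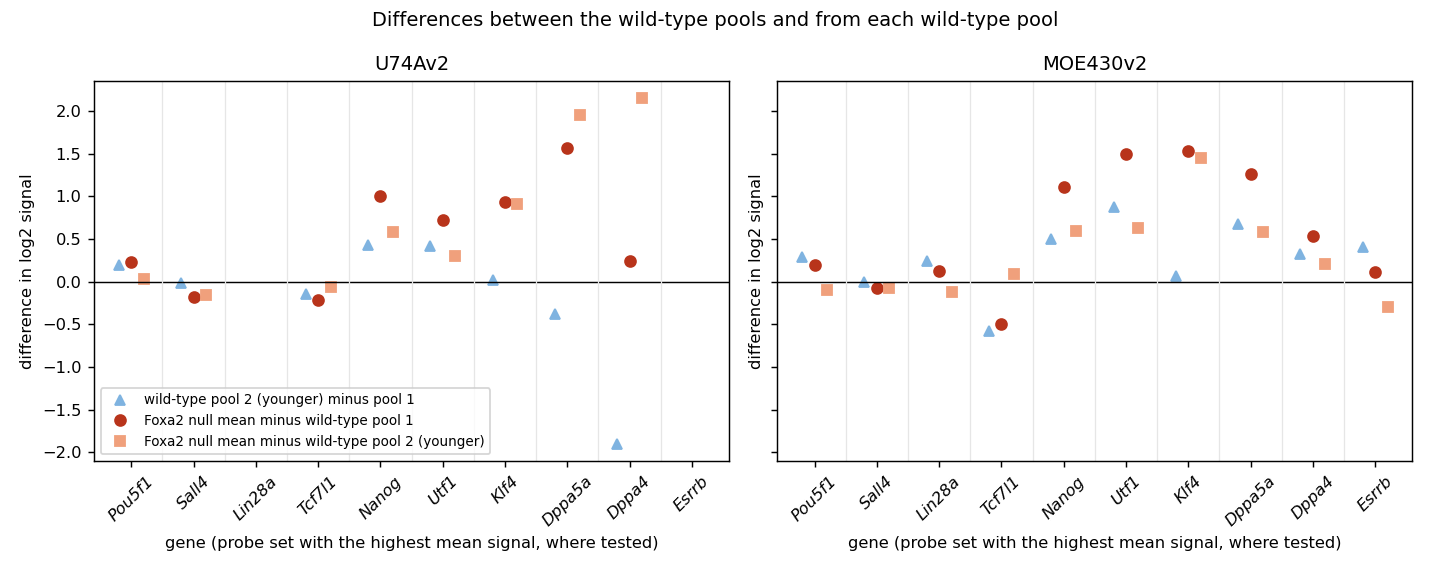
Differences in log2 signal between the wild-type pools (triangles) and between the Foxa2 null mean and each wild-type pool (circles for pool 1, squares for the younger pool 2), 1 lead probe set per gene. For Nanog and Utf1 the squares lie below the circles on both platforms, whereas for Klf4 both lie near 0.9 on U74Av2 and 1.5 on MOE430v2 and the triangle lies near 0. By construction the circle lies above the square by the value of the triangle.

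Foxa2 itself lay lower in both null pools, at 165 and 271 in wild-type and 84.0 and 93.8 in null on U74Av2 and 803 and 1139 against 509.98 and 539 on MOE430v2. Averaged over platforms its log2 ratio was -1.07 ± 0.20 (adjusted p = 0.0309, limma with Benjamini-Hochberg). Foxa2 did not pass without wild-type pool 2 (-0.75, 0.101), with no filter on low signals (0.0507) and with no intensity trend (0.195). Whether its probes lie in the deleted part is not given in the sources used here, and the host-derived tissue is wild-type for it. The arrays were of like brightness, with a median signal of 48.15 to 52.8 on U74Av2 and 155 to 165 on MOE430v2, and no array stood apart in that respect. Pou5f1, the defining epiblast marker, was at percentile 97.9 and 96.9 of the platforms by mean signal, and no array lacked it.

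Other genes of the pluripotency network were taken from 2 textbook lists that were drawn up with earlier results of these data known. Of the naive list, 10 of 16 genes on the array were tested on U74Av2 and 17 of 18 on MOE430v2, and 0 passed in either direction on either platform (limma, Benjamini-Hochberg). At an unadjusted p under 0.05 (limma), 4 were higher and 1 lower on U74Av2 and 2 and 1 on MOE430v2. Of all probe sets, 5.01% were higher and 5.01% lower on U74Av2, and 6.04% and 6.07% on MOE430v2. The U74Av2 count includes Tdgf1 and Gdf3, tested there only through their null values, so these genes lend it no weight. The median log2 ratios were 0.07 and 0.14, the first raised by the same genes. Tdgf1, the Nodal co-receptor Cripto, had the highest ratio on both platforms. It read 5.1 and 22.9 in wild-type and 27.8 and 51.7 in null on U74Av2, and 98.8 and 295 against 495 and 1269.8 on MOE430v2, log2 ratios of 1.81 and 2.21. The wild-type mean on U74Av2 lay under the signal at the filter (15.4), so Tdgf1 was tested there only through its null values and that ratio is not exact. On MOE430v2 (SE 0.54) its younger wild-type pool exceeded the older by 1.62. Gbx2, a homeobox gene of naive cells and later of the posterior epiblast, had the lowest ratio on both, -0.97 ± 0.18 and -0.84 ± 0.16 (adjusted p = 0.101 and 0.0617, limma with Benjamini-Hochberg). The TGF-beta family ligand Gdf3 was at 1.67 on U74Av2, where its wild-type mean was again under the filter, and at -0.06 ± 0.37 on MOE430v2, which differ in sign. The nuclear receptors Nr0b1 (-0.25 on U74Av2 and 0.14 on MOE430v2) and Nr5a2 (-0.10 and 0.84) and the kinase cofactor Tcl1 (-0.17 on MOE430v2) complete the extremes of the list.

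Of the list of epiblast and formative genes, 12 of 13 were tested on U74Av2 and 20 of 21 on MOE430v2, and 0 passed (limma, Benjamini-Hochberg). At an unadjusted p under 0.05 (limma), 1 was higher and 0 lower on U74Av2 and 3 and 1 on MOE430v2. Of all probe sets, 5.01% were higher and 5.01% lower on U74Av2, and 6.04% and 6.07% on MOE430v2. The 3 include Foxd3, tested only through its null values, so Foxd3 lends that count no weight. The median log2 ratios were -0.05 and 0.15. Sox2, the partner of Pou5f1, was lower in both null pools on both platforms, with log2 ratios of -0.40 ± 0.21 and -0.37 ± 0.13 (adjusted p = 0.583 and 0.299, limma with Benjamini-Hochberg). Foxd3, a forkhead factor of the epiblast, read 34.3 and 58.3 in wild-type and 205 and 271 in null on MOE430v2, a log2 ratio of 2.42 that did not pass (0.0991 by the same test). Its wild-type mean was under the signal at the filter there (54.4), so it was tested only through its null values and the size is not exact. Fgf5, the growth factor that marks the implanted epiblast, was at 0.57 ± 0.40 and 0.67 ± 0.28, and Otx2, the head homeobox factor, at -0.35 ± 0.21 on MOE430v2. Fgf8 was at -0.69 ± 0.52 on U74Av2 and 0.19 on MOE430v2, which differ in sign, and the zinc-finger factor Zfp281 at 0.46 ± 0.17 and 0.03.

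Markers of other cells that the dissected region could hold differed between pools as well. All 8 visceral endoderm markers on U74Av2 and all 9 on MOE430v2 were tested, none near 0 on any array (lowest signal 116 and 1410). Their median log2 ratios were 0.33 and 0.39, with Apob at 0.60 ± 0.16 and 0.71 ± 0.18, Apoa4 at 0.72 ± 0.19 and 0.56 ± 0.20, Cubn at 0.48 and 0.52, Ttr at 0.57 and 0.11, Cited1 at -0.15 and -0.29, Rbp4 at 0.11 and 0.00, and Amn at 0.39 on MOE430v2. Afp differed in sign, at -0.48 ± 0.21 on U74Av2 and 0.43 ± 0.09 on MOE430v2 (adjusted p = 0.475 and 0.0951, limma with Benjamini-Hochberg). None passed, and at an unadjusted p under 0.05 (limma), 3 were higher and 1 lower on U74Av2 and 5 and 0 on MOE430v2. Of all probe sets, 5.01% were higher and 5.01% lower on U74Av2, and 6.04% and 6.07% on MOE430v2. Both null arrays lay above both wild-type arrays for 4 of the 8 and 5 of the 9, and below for 1 and 0. Of all probe sets, 18.6% and 21.5% lay above in this way and 21.4% and 21.8% below. Their summed signal was 5981 and 6328 in wild-type and 8816 and 6062 in null on U74Av2, and 55840 and 63562 against 78108 and 63602 on MOE430v2. The sum was thus highest in null pool 1 on both platforms, the pool in which Klf4 was highest. Nanog, Utf1 and Dppa5a were highest in null pool 2. The part of visceral endoderm in these ratios was not tested.

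Trophoblast and extra-embryonic ectoderm markers (8 of 9 tested on U74Av2 and 7 of 9 on MOE430v2) had median log2 ratios of 0.34 and 0.62. There were 0 calls by limma with Benjamini-Hochberg. At an unadjusted p under 0.05, 3 were higher and 0 lower on each platform. Of all probe sets, 5.01% were higher and 5.01% lower on U74Av2, and 6.04% and 6.07% on MOE430v2. Their summed signal was 974 and 831 in wild-type and 1216 and 1297 in null on U74Av2, and 5350 and 5371 against 6954 and 7951 on MOE430v2. The lowest signals were 12.1 for Ascl2 and 14.3 for Gata3, both in wild-type pool 2. The T-box factor Eomes, shared with the primitive streak list, made the highest ratio of the list, 1.92 ± 0.56 and 1.34 ± 0.43. Hand1, a basic helix-loop-helix factor of trophoblast and extra-embryonic mesoderm, was higher in both null pools on both platforms, at 0.47 ± 0.18 and 0.78 ± 0.14 (adjusted p = 0.438 and 0.0551, limma with Benjamini-Hochberg). So was Tfap2c, at 0.77 and 0.62. Ratios of Ascl2 (0.82 on U74Av2), Gata3 (0.22 and 1.16, the second with a wild-type mean under the filter), Cdx2 (-0.13 and -0.46), Plac1 (-0.40 and -0.09) and Esx1 (0.11 and -0.24) spread to both sides of 0. The part of these cells in the results was not tested.

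Primitive streak markers (6 tested on each platform) had median log2 ratios of 0.26 and 0.16 and summed signals of 438 and 662 in wild-type and 565 and 989 in null on U74Av2, and 3294 and 4869 against 4275 and 7201 on MOE430v2. The sum was highest in null pool 2 and, within wild-type, in the younger pool 2 on both platforms. So were the signals of Nanog, Utf1 and Pou5f1 at their brightest probe sets. In null pool 2 on U74Av2 much of the sum came from Mesp1 (425) and from Eomes (226), which is also on the trophoblast list. Not every streak marker followed the order of the sum. Wnt3a was highest in wild-type pool 2 on U74Av2 (105) and in wild-type pool 1 on MOE430v2 (782). Mesp1 was at 0.86 ± 0.36 and 0.76 ± 0.32 and Wnt3a at -1.04 ± 0.27 and -0.48 ± 0.19, with Mixl1 at 0.00 on MOE430v2. The medians and sums leave out the streak marker T (Brachyury), which is on the list but was not among the genes tested here. The paper reports T as reduced in the mutants on both platforms. Primordial germ cells keep Pou5f1, Nanog and Dppa5a, and their markers (4 and 6 tested) had medians of 0.01 and 0.14. Their summed signal was 464 and 408 in wild-type and 535 and 394 in null on U74Av2, and 3464 and 2699 against 3053 and 2562 on MOE430v2. Tfap2c was at 0.77 ± 0.26 and 0.62 ± 0.24, Ifitm3 at -0.35 ± 0.19 and -0.55 ± 0.15, Kit at -0.42 and -0.07, Prdm1 at 0.37 and -0.22, and Dppa3 at 0.47 on MOE430v2. The part of these cells was not tested either.

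Anterior neuroectoderm markers (4 and 5 tested) had medians of -0.64 and -0.71. Hesx1, a homeobox repressor of the anterior neural plate, was the single gene of all the lists here to pass on a platform. It fell in Foxa2 null pools on MOE430v2, from 843 and 774 to 339 and 196 (log2 ratio -1.66 ± 0.27, adjusted p = 0.046 by limma with Benjamini-Hochberg). The Hesx1 call was lost without wild-type pool 1 (-1.62, 0.155) or wild-type pool 2 (-1.70, 0.173), with no filter (0.121) and with no intensity trend (0.454). On U74Av2 Hesx1 was at -1.31 ± 0.36 (0.227), Six3 at -1.17 ± 0.32 and Sox1 at 0.23 ± 0.30. On MOE430v2 Six3 was at -0.71, Sox1 at -2.20 and Lhx2 at 0.42, with a null mean under the filter for Sox1 and a wild-type mean under it for Lhx2.

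**Figure D4:**
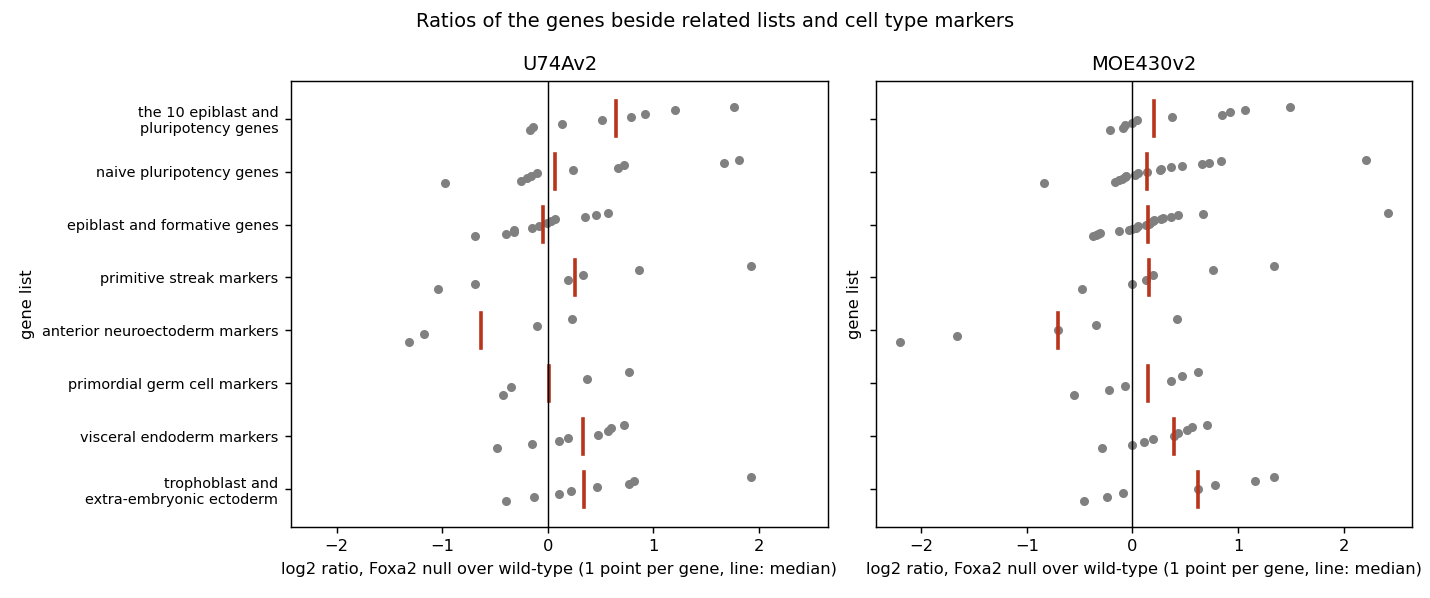
Log2 ratio, Foxa2 null over wild-type, for the 10 genes, 2 lists of related genes and 5 lists of cell type markers, 1 point per gene and a line at each median. The line of the 10 genes lies at 0.65 on U74Av2 and 0.21 on MOE430v2, and that of anterior neuroectoderm at -0.64 and -0.71. The U74Av2 line at 0.65 includes Dppa4, tested there only through its null values.

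The genes whose 4 extracts followed those of Pou5f1 most closely were sought by root mean square distance of the centred log2 values, over the 5933 genes on both platforms. They were Nqo1 (0.00638), Zc3hc1 (0.0174), Wdr46 (0.0195), Mid1ip1 (0.0305) and Tor3a (0.0334). Pou5f1 stood at -0.17 and 0.08 in wild-type and -0.17 and 0.25 in null on this centred scale. For Nanog, a search added after its values were seen, the nearest genes were Peg10 (0.0652), Fgf5 (0.111), Cyb5r1 (0.111), Zfp982 (0.114) and Dbndd2 (0.115). Each distance rests on 4 values per gene, and whether such closeness is unusual among 5933 genes was not tested.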

How the data were processed

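Each of 4 RNA extracts was measured on 1 Affymetrix U74Av2 and 1 MOE430v2 array. What was deposited is the MAS5 signal, a linear intensity for each probe set that the authors brought to a common target (trimmed mean 150.1 on U74Av2 and 500 on MOE430v2, while the methods name another target for U74Av2). The MOE430v2 values carry no loess step, although the methods describe one. Present and change calls and probe-level values were not analysed here.

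Signals were floored at 0.1 and log2 transformed, and limma 3.58.1 was run under R 4.3.3. U74Av2 values were used as scaled, and MOE430v2 values were normalized by cyclic loess. Control probe sets (66 and 64) and then the dimmest 30% by mean log2 signal (3727 and 13511) were left out, which left 8695 and 31526. Of the probe sets of the 10 genes, 2 and 1 fell to this filter. Foxa2 null was compared with wild-type by limma (lmFit, eBayes with an intensity trend, no block), two-sided, with Benjamini-Hochberg adjustment over all probe sets tested and a threshold of 0.05. For genes on both platforms, log2 values were centred per gene and platform at the brightest probe set naming 1 gene and averaged per extract. The number of arrays limits the precision. The pipeline was tested on simulated data.

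Symbols came from the platforms' probe tables, updated through gene identifiers, and positions, promoters and their motif matches from RefSeq (GRCm38.p6). All probe sets of the 10 genes were named, with Foxa2, the 2 lowest and 2 highest tested genes of each context list per platform (1 chosen name is not reported here), and the 5 genes nearest Pou5f1. The genes and lists were chosen with earlier results of these data known.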

Additional observations from a re-analysis of the deposited data

Results flagged for a closer look

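Utf1 probe set 1443786_at on MOE430v2 lay outside the comparisons because its mean signal fell under the filter on low signals (percentile 29.1 of all probe sets). Its wild-type signals were 10.05 and 19.9 and its Foxa2 null signals 159 and 369.7, so both null values exceeded both wild-type values, and the difference of the log2 means was 4.12. The wild-type values lie under the signal at the filter (54.4), so the size of this difference is not exact. In a fit with no filter over 45037 probe sets it did not pass (adjusted p = 0.131 by limma with Benjamini-Hochberg). Where these probes lie in the Utf1 locus was not analysed here. The 2 tested Utf1 probe sets on that platform had log2 ratios of 1.07 and 0.77.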

How the results depend on the processing

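With 2 pools per genotype, dim probe sets such as those of Dppa4, Dppa5a and Esrrb on U74Av2 lie near the background, and the calls depend on how limma models the spread. Of the 8 genes tested on both platforms, 2 passed. This count was 0 with no intensity trend and 0 with no filter on low signals, and ran from 0 to 3 when 1 pool was left out. On MOE430v2, where 0 passed, Klf4 passed with an offset before log2 (count 1, log2 ratio 1.3, adjusted p = 0.0465) and with 50% of the lowest signals left out (1, 0.0321), and the count ran from 0 to 1 without single pools (Utf1 without Foxa2 null pool 1, Klf4 at 1.78 without Foxa2 null pool 2). Over all probe sets these 2 settings called 123 higher and 118 lower, and 178 and 145, against 60 and 77. With no filter 16 and 27 were called there, and 0 and 3 against 9 and 15 on U74Av2, and with no trend 0 on either platform. Averaged over platforms, 80 higher and 63 lower became 0 and 2 with no trend and 44 and 38 with no filter.

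The pools share replicate numbers that the labels do not tie to a batch, and same-numbered pools deviated together only weakly (correlation 0.11 on U74Av2, 0.09 on MOE430v2 and 0.16 averaged). With the replicate number as a block, counts of the genes called rose to 2 on U74Av2 (Nanog and Dppa5a), 4 on MOE430v2 and 4 averaged (Nanog, Utf1, Klf4 and Dppa5a in both), while over all features 163 higher and 129 lower, 846 and 802, and 262 and 240 were called.

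Ratios that turned sign were small. Leaving out 1 pool at a time, Pou5f1 ran from -0.07 to 0.33 on U74Av2, -0.17 to 0.26 on MOE430v2 and -0.12 to 0.29 averaged, with the lowest values without Foxa2 null pool 2 and also below 0 without wild-type pool 1 on MOE430v2 (-0.10) and averaged (-0.04). Tcf7l1 was at 0.13, 0.10 and 0.12 with the mean of its probe sets (the last chosen after seeing the data) and ran from -0.50 to 0.09 on MOE430v2 and -0.36 to 0.01 averaged without single pools, above 0 without wild-type pool 1. Esrrb on MOE430v2 ran from -0.30 to 0.11, above 0 without wild-type pool 2 and without Foxa2 null pool 1 (0.01), and was at 0.22 with the mean of its probe sets. The cause was not tested. In the settings run, the ratios of Nanog, Utf1, Klf4, Dppa5a and Dppa4 stayed above 0 and those of Sall4 below it.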
